A study of Mus musculus with 7 samples.

Results

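The 10 genes described here are 3 of the CCN family of matricellular proteins (Ccn1, formerly Cyr61; Ccn2, formerly Ctgf; Ccn5, formerly Wisp2) and 7 of the YAP-TEAD axis (Yap1, Wwtr1, Tead1, Tead4, Ankrd1, Amotl2 and Lats2). They were chosen by name, with earlier results of these data known. Every probe whose transcript accession belongs to them in a RefSeq gene table was taken. This gave 15 probes, of which 14 were well above background on all 7 arrays, so that all 10 genes were among the 23678 genes tested. The remaining probe, a second one for Tead4, was above background on 1 array and was not tested. Of the 23678 genes, 14722 had a symbol, and a transcript accession without a symbol counted as a gene of its own.

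Total RNA of the heart apex was measured on single-colour Agilent arrays, with 1 array for each of 7 male C57Bl/6 mice. The 4 control mice were heterozygous for MHC-mercremer, a tamoxifen-dependent recombinase driven by the promoter of alpha myosin heavy chain and so by cardiomyocytes. The 3 double knockout (DKO) mice carried the same transgene and were homozygous for loxP-flanked Akt1 (exons 6 and 7) and Akt2 (exons 5 and 6). All mice, aged 3 months, were given 4-hydroxytamoxifen at a daily 500 µg over 5 days, and hearts were taken 10 days after induction. Recombinase and drug are therefore shared by both groups, whereas floxed Akt alleles without recombinase were not among the groups. Cells other than cardiomyocytes keep their Akt genes and contribute RNA to every value, and in whole tissue fewer cells of a type and less RNA per cell cannot be told apart.

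The CCN proteins are secreted into the extracellular matrix, where they bind integrins and other surface receptors and alter adhesion, growth factor signalling and scar formation. YAP (Yap1) and TAZ (Wwtr1) are transcriptional coactivators without a DNA-binding domain of their own, and they reach DNA through the TEAD factors. In the Hippo pathway the kinases Lats1 and Lats2 phosphorylate YAP and TAZ and keep them out of the nucleus, so activity of the axis is read from its target genes more than from Yap1 or Wwtr1 transcripts. Ccn1, Ccn2 and Ankrd1 are standard targets, and Amotl2 and Lats2 are targets that in turn restrain YAP. In heart muscle the axis is known for its part in fetal growth and in the response to stretch and injury.

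The targeted genes were read first. The brightest probe of Akt2 lay between 13.61 and 13.78 on the normalized log2 scale in control hearts and between 11.61 and 11.67 in DKO hearts, and it fell (limma, adjusted p = 0.000165). Its log2 difference was -2.05, and the other Akt2 probes gave -2.29 and -0.68, so the size of the fall differed by probe. The brightest probe of Akt1 was not lower in DKO hearts: it lay at 14.40 to 14.55 in controls and 14.60 to 14.68 in DKO hearts (limma, adjusted p = 0.190). Its other probe was not lower either, with a difference of 0.47 (limma, adjusted p = 0.139 over probes). Where the probes sit relative to the deleted exons was not analysed here. The cardiomyocyte markers Myh6, Tnnt2, Tnni3, Actc1, Ryr2, Pln, Myl2 and Myl3 were well above background on all 7 arrays. Control replicate 1 stood apart from the other controls, with which it correlated at 0.984 to 0.987 over genes, against 0.992 to 0.994 among the other 3. The number of arrays limits the precision, and the limma p-values set a group difference against the spread between these mice, moderated over all genes.

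Of the 10 genes, 3 rose in DKO hearts and 0 fell. The threshold was 0.05 for two-sided p-values of limma, adjusted by Benjamini-Hochberg over all 23678 genes. In the same fit 4.7% of all genes passed, 2.41% as rises and 2.29% as falls, and of all single probes 4.4% passed, against 3 of the 14 tested here. The 10 genes and the lists below were chosen with earlier results known, so a count above these shares is no test of them. The 3 were Ccn2, Amotl2 and Ankrd1, all of them targets of the axis. Yap1, Wwtr1, Tead1 and Tead4 did not pass, and neither did Lats2, Ccn1 or Ccn5. Signals of the groups did not overlap for 5 of the 10 genes, all higher in DKO, where 13.2% of all genes were without overlap in that direction, 12.5% in the other and 25.7% in either.

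**Figure D1:**
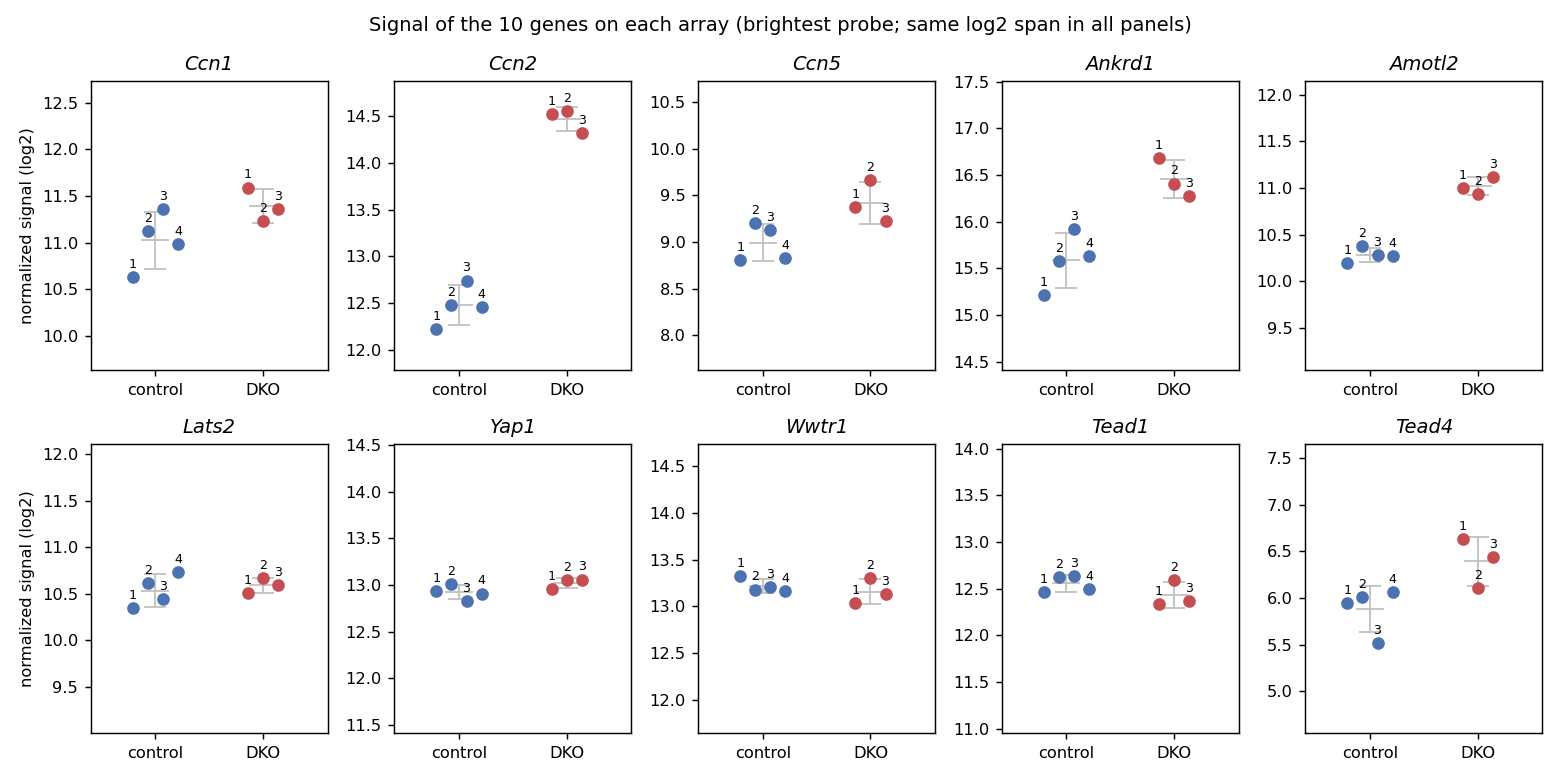
Normalized log2 signal of the brightest probe of each of the 10 genes, with 1 point per mouse labelled by replicate number, control in blue and DKO in red, and a grey bar for the mean and SD. Ccn2, Amotl2 and Ankrd1 show clear gaps between the groups, whereas Yap1, Wwtr1, Tead1 and Lats2 overlap; the vertical span is the same in every panel, but probes of different genes cannot be compared in level.

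Ccn2, the matricellular protein best known as a mediator of fibrosis, had the largest rise of the 10. Its log2 signal was 12.22, 12.48, 12.74 and 12.46 in control replicates 1 to 4 and 14.52, 14.56 and 14.32 in DKO replicates 1 to 3. The lowest DKO heart lay 1.58 log2 units above the highest control heart, and the 3 DKO hearts spanned a narrower range than the controls. The difference was 1.99 ± 0.13 (SE, n = 4 and 3), a rise of 3.98-fold with a 95% interval of 3.20 to 4.94 (limma, adjusted p = 0.00312). Only 11 of 23678 genes had a larger rise on this scale. Within slide row 1 (3 controls, 1 DKO) the log2 difference was 1.85, and within slide row 2 (1 control, 2 DKO) it was 2.06.

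The other CCN genes of the set moved less. Ccn1, which like Ccn2 is an immediate target of YAP and binds integrins, read 10.63, 11.12, 11.36 and 10.98 in the controls and 11.59, 11.23 and 11.36 in the DKO hearts. Control replicate 3 lay above DKO replicate 2, so the groups overlapped. The log2 difference of Ccn1 was 0.37 ± 0.18, with a 95% interval from -0.05 to 0.79 (limma, adjusted p = 0.241), which leaves a fold of up to 1.73 within reach. Ccn5, a CCN protein that lacks the C-terminal cystine knot and is known to oppose Ccn2 in fibrosis, read 8.81, 9.20, 9.13 and 8.83 in controls and 9.38, 9.66 and 9.22 in DKO hearts. All 3 DKO values were above all controls, but by only 0.02 log2 units, and the difference of 0.43 ± 0.15 did not pass (limma, adjusted p = 0.136, 95% interval 0.08 to 0.77). The intervals of both lie wholly below the lower bound of 1.68 for Ccn2.

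Amotl2, a scaffold of the angiomotin family that holds YAP at cell junctions, was the most tightly grouped of the 3 genes that rose. It read 10.19, 10.38, 10.28 and 10.27 in controls and 11.00, 10.93 and 11.12 in DKO hearts. The SD was 0.08 in the controls and 0.10 in the DKO hearts, and the gap between the groups was 0.54. The difference was 0.73 ± 0.08, or 1.66-fold with a 95% interval of 1.45 to 1.91 (limma, adjusted p = 0.00901). Within slide row 1 it was 0.88 and within row 2 it was 0.58.

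Ankrd1, which encodes a cardiac ankyrin repeat protein of the sarcomere and nucleus that stretch induces, read 15.21, 15.58, 15.92 and 15.63 in controls. The DKO hearts read 16.68, 16.41 and 16.28, all above the controls. The log2 difference was 0.87 ± 0.18, or 1.83-fold with a 95% interval of 1.37 to 2.45 (limma, adjusted p = 0.0435). This call was lost with any 1 of the 7 arrays left out (adjusted p from 0.0501 to 0.130) and with slide row as a block (adjusted p = 0.111), while Ccn2 and Amotl2 passed in all 7 such fits, at up to 0.0226 and 0.0476. The within-row differences of Ankrd1 were 0.69 and 0.97.

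The control hearts ranked alike for several targets. Control replicate 1 was the lowest and control replicate 3 the highest control for Ccn1, Ccn2 and Ankrd1, with a spread of 0.73, 0.52 and 0.71 log2 units between them. Control replicate 1 was also the lowest control for Ccn5 and Amotl2. Without it the differences were 1.90 for Ccn2, 0.70 for Amotl2 and 0.74 for Ankrd1, and 0.24 for Ccn1.

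The promoters of these targets can be read beside the values. The RefSeq promoter table (GRCm38.p6) held 6 of the 10 genes with 8 start sites in all; Ccn2, Ccn5, Tead1 and Tead4 had no entry. The 250 bases before each start were searched on both strands for the TEAD core GGAATG. The sequences below are those of the 2 genes in the table that rose and of Ccn1, the CCN gene in the table, which did not pass; capitals mark the matches, read 5′ to 3′ on the gene's strand.
Amotl2: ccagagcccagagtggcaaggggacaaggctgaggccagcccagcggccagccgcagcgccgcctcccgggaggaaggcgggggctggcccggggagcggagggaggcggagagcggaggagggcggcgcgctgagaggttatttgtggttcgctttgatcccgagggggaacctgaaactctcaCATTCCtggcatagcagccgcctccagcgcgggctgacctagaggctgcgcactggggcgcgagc
Ankrd1: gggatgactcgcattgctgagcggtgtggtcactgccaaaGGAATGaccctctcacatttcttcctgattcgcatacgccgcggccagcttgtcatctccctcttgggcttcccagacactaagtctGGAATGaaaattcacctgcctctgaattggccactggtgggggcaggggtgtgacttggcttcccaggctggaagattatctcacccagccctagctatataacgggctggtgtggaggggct
Ccn1: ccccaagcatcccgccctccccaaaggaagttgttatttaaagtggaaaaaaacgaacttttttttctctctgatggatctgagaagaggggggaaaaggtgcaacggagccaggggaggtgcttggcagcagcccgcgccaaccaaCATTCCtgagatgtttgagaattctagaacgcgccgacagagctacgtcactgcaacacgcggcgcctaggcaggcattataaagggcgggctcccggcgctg

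These windows lie at chr9:102717554-102717803 (plus strand) for Amotl2, chr19:36119845-36120094 (minus strand) for Ankrd1 and chr3:145649986-145650235 (minus strand) for Ccn1. Amotl2 held 1 match, starting 65 bases before the start and on the opposite strand. Ankrd1 held 2 on its own strand, starting 210 and 123 bases before the start. Ccn1 held 1 on the opposite strand, starting 103 bases before the start. Of the 8 windows of the set 6 held at least 1 match, compared with 12.6% of 32851 promoter windows of the same length in the table. Of 12 windows of the wider list of YAP targets described further on, 3 held it (Axl, Crim1 and Ptpn14). The motif thus stood in front of genes that rose (Amotl2, Ankrd1) and of genes that did not pass (Ccn1, Yap1 and Wwtr1), and the 2 Wwtr1 windows overlap and share 1 site. Neither Lats2 window of this length held it. The AP-1 motif TGACTCA, the FoxO motif GTAAACA and the CArG box of serum response factor were in 0 of the 8 windows, and in 4.46%, 3.17% and 1.47% of all windows. Matches did not overlap each other. A match describes letters and shows no binding.

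**Figure D2:**
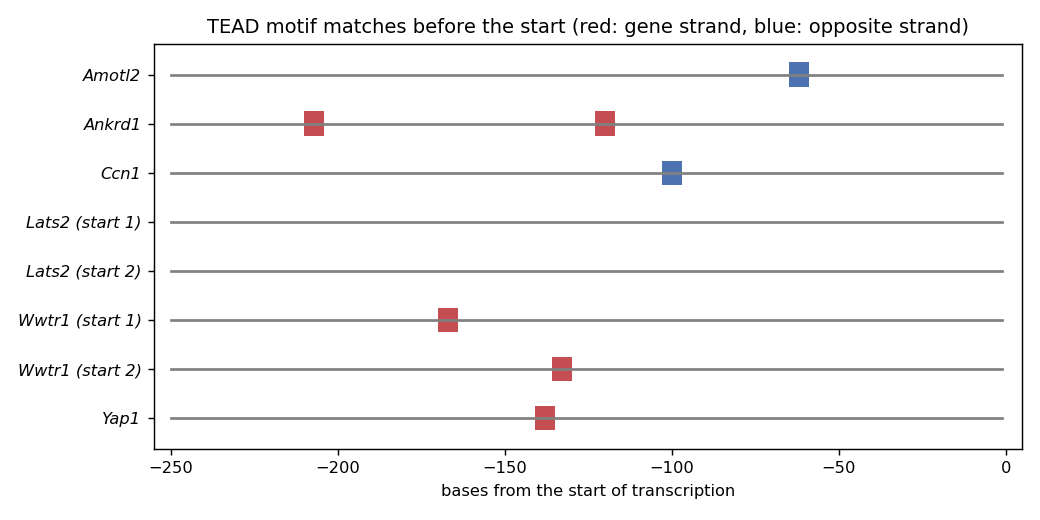
Positions of the TEAD motif in the 250 bases before each start site, as distance in bases from the start, with matches on the gene's strand in red and on the opposite strand in blue. Amotl2, Ankrd1, Ccn1, Wwtr1 and Yap1 hold a match and both Lats2 windows hold none.

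The coactivators differed little between the groups. Yap1 read 12.94, 13.01, 12.83 and 12.91 in controls and 12.96, 13.05 and 13.06 in DKO hearts, a log2 difference of 0.10 ± 0.08 with a 95% interval from -0.08 to 0.28 (limma, adjusted p = 0.448). Wwtr1, the gene of TAZ, read 13.33, 13.18, 13.21 and 13.16 against 13.04, 13.30 and 13.13, a difference of -0.06 ± 0.09 (95% interval -0.27 to 0.15, limma, adjusted p = 0.687). The groups overlapped for both genes. The intervals exclude a rise above 1.21-fold for Yap1 and above 1.11-fold for Wwtr1. Protein level, phosphorylation and location of YAP and TAZ were not measured.

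The TEAD factors, which bind the DNA, were likewise not called. The brightest of the 3 Tead1 probes read 12.46, 12.63, 12.64 and 12.50 in controls and 12.34, 12.59 and 12.37 in DKO hearts, and the groups overlapped. Its log2 difference was -0.12 ± 0.09, and the other 2 probes gave -0.11 and -0.11 (limma, adjusted p from 0.449 to 0.576 over probes). All 3 probes thus leaned the same way by a similar amount and none passed. The tested Tead4 probe read 5.95, 6.01, 5.52 and 6.06 in controls and 6.63, 6.11 and 6.44 in DKO hearts, without overlap but with a gap of only 0.05. The difference was 0.51 ± 0.17 (95% interval 0.10 to 0.92, limma, adjusted p = 0.131). This probe was dimmer than the brightest probe of any other gene of the set. Its difference depended on the processing, with 0.24 under normexp with the 75th percentile and 0.65 under quantile normalization.

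Lats2, the kinase that phosphorylates YAP and TAZ, had 3 probes that did not point the same way. The brightest read 10.35, 10.62, 10.44 and 10.73 in controls and 10.51, 10.67 and 10.59 in DKO hearts, so the DKO values lay inside the control range. Its difference was 0.06 ± 0.11 (95% interval -0.20 to 0.31). The dimmer probes gave 0.12 ± 0.14 and -0.33 ± 0.15 (limma, adjusted p = 0.620 and 0.229 over probes). The last of these belongs to another transcript accession than the other 2, and the groups overlapped for all 3. The direction of Lats2 is therefore not settled.

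**Figure D3:**
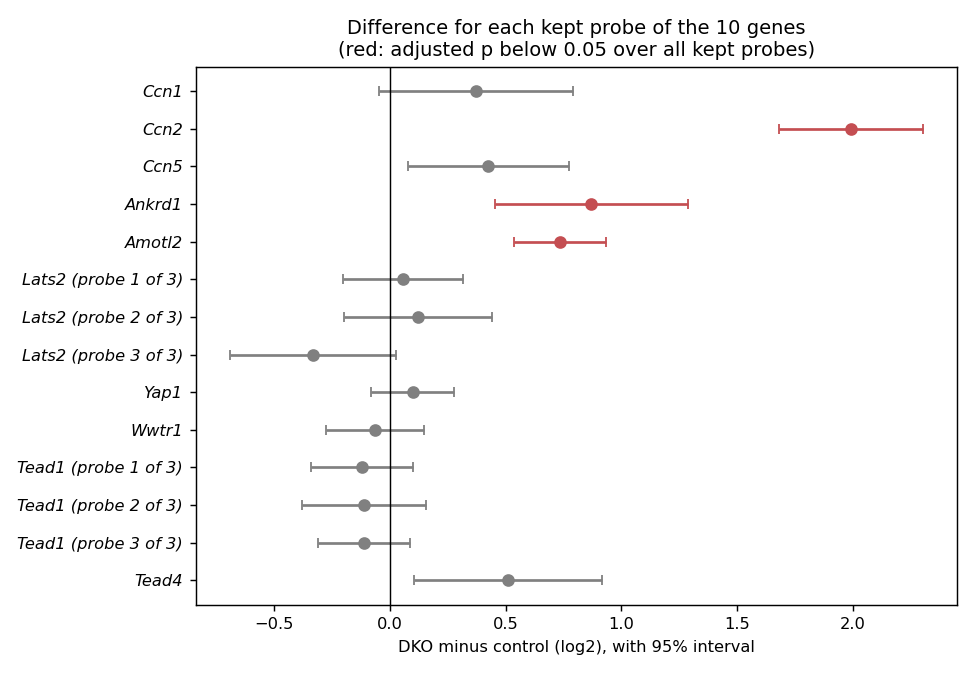
DKO minus control in log2 units for each of the 14 tested probes of the 10 genes, with 95% intervals; probes of a gene run from the brightest to the dimmest. The intervals of Ccn2, Amotl2 and Ankrd1, drawn in red, lie clear of 0, as do those of Ccn5 and Tead4, which did not pass; those of Ccn1 and of the Yap1, Wwtr1, Tead1 and Lats2 probes cross it.

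A wider list of YAP targets was described in the same fit. It is a published signature of 22 genes without the 5 that belong to the set, and 16 of the remaining 17 were measured (Foxf2 was not above background). Of these, 3 rose and 0 fell, where 2.41% of all genes passed as rises. In all 11 were higher, and the median log2 difference was 0.23, against a median of -0.02 over all genes, of which 46.9% were higher. The 3 were Ptpn14, a phosphatase that binds YAP (0.88 ± 0.11), Nt5e, the ecto-nucleotidase CD73 (0.75 ± 0.16), and Crim1, a membrane protein that binds growth factors of the TGF-beta family (0.44 ± 0.08; limma, adjusted p = 0.0136, 0.0457 and 0.0368). Ptpn14 read 8.74, 8.64, 8.60 and 8.31 in controls and 9.45, 9.38 and 9.53 in DKO hearts. Its 2 dimmer probes gave differences of -0.0044 and -0.26 (adjusted p = 0.986 and 0.696 over probes), so its rise rests on 1 probe of 3. Nt5e and Crim1 had 1 probe each and passed in 0 of the 7 fits with an array left out (adjusted p up to 0.137 and 0.121, both without DKO replicate 1), and Ptpn14 passed in 5. Those at the other end, Dock5 and Myof, read -0.28 and -0.22.

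Of 28 other genes of the Hippo pathway, upstream regulators of YAP as well as TEAD factors and their cofactors, 26 were measured. Of these, 2 rose and 0 fell (16 higher, median 0.06), where 2.41% of all genes passed as rises. Both belong to the Ajuba family of LIM proteins, which bind Lats kinases and restrain them. Limd1 read 10.94, 11.38, 11.30 and 11.27 in controls and 11.88, 11.95 and 11.78 in DKO hearts, a difference of 0.65 ± 0.12. Wtip differed by 0.35 ± 0.07 (limma, adjusted p = 0.0342 and 0.0431). The third gene of the family, Ajuba, gave 0.34 ± 0.08 and did not pass (adjusted p = 0.0702), although its groups did not overlap. Under quantile normalization and in the authors' values Ajuba passed and Wtip did not, and with array weights all 3 passed. Second probes of Limd1 and Wtip gave 0.76 and 0.47. With an array left out, Limd1 passed in 2 of 7 fits and Wtip in 0 (adjusted p up to 0.109 and 0.130, both without DKO replicate 2). Of the core kinases, Lats1 gave 0.01 ± 0.09, Stk4 0.06 ± 0.09 and Stk3 0.33 ± 0.31. Stk3 read 7.78 in control replicate 1, 8.90 to 9.10 in the other controls and 8.96 to 9.11 in DKO hearts, so its difference rests on that array. Amot, the founding angiomotin, gave -0.21 ± 0.08, opposite in sign to Amotl2 (limma, adjusted p = 0.144). Tead3 gave -0.05 ± 0.12 and the TEAD cofactor Vgll4 0.01 ± 0.09.

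**Figure D4:**
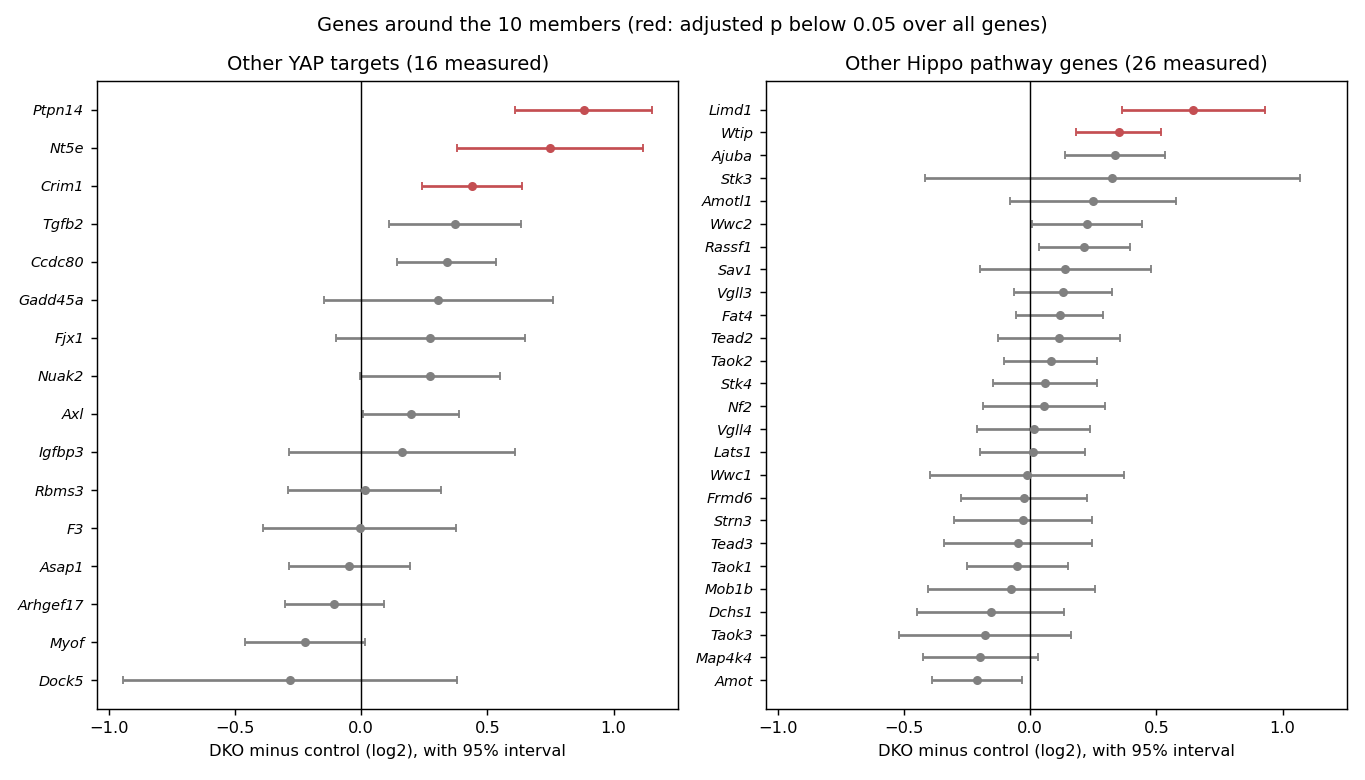
DKO minus control in log2 units, with 95% intervals, for the 16 other YAP targets (left) and the 26 other Hippo pathway genes (right), ordered by difference. Ptpn14, Nt5e and Crim1 on the left and Limd1 and Wtip on the right, in red, passed an adjusted p of 0.05 over all genes.

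Of 14 measured relatives and receptors of the CCN proteins 1 rose and 1 fell (9 higher, median 0.04), where 4.7% of all genes passed. Neither passed with slide row as a block or without a filter. Itgb5, the integrin beta chain that pairs with the alpha V chain to bind CCN proteins, read 13.16, 13.13, 13.40 and 13.11 in controls and 13.63, 13.67 and 13.84 in DKO hearts (0.51 ± 0.10; limma, adjusted p = 0.0393). Notch1, a receptor that Ccn3 binds, read 11.62, 11.51, 12.24 and 11.60 in controls against 10.84, 10.59 and 10.92 (-0.96 ± 0.19; limma, adjusted p = 0.0399). They passed in 1 and 2 of the 7 fits with an array left out (adjusted p up to 0.114 without DKO replicate 3 and 0.121 without DKO replicate 2). The CCN gene Ccn4 read 7.39, 6.97, 7.02 and 7.86 in controls and 6.42, 6.38 and 6.21 in DKO hearts, opposite in direction to Ccn2. Its difference of -0.97 ± 0.22 missed the threshold (limma, adjusted p = 0.0541), and it passed in 4 of the 20 alternatives. Ccn3 differed by 0.01 ± 0.19, and Ccn6 was above background on 0 arrays.

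Genes that share inducers with Ccn1, Ccn2 and Ankrd1 were set beside them. In this limma fit an unadjusted p of 0.0496 went with an adjusted p of 0.196, so an unadjusted p under 0.05 was common among all genes. Counts by unadjusted p are given without the share over all genes, which was not counted. Among 16 genes of serum response factor, its MRTF cofactors and their targets the limma count was 0 (5 had an unadjusted p under 0.05), with Fhl2 at -0.41 ± 0.12, Acta2 at -0.41 ± 0.14 and Tagln at 0.36 ± 0.11, and a median of 0.08. Of 12 genes that TGF-beta is known to induce or that encode it, the limma count was 0 (1 had an unadjusted p under 0.05), with 10 higher and a median of 0.10. Ltbp2 and Tgfb3 gave 0.26 ± 0.12 and 0.18 ± 0.09, and Tgfb1 gave 0.12 ± 0.12. Among 6 muscle ankyrin repeat genes and partners of Ankrd1, 1 fell, where 2.29% of all genes passed as falls. This was Casq2, which encodes the calcium store protein calsequestrin (-0.50 ± 0.09, limma, adjusted p = 0.0349). It passed in 0 of the 7 fits with an array left out (adjusted p up to 0.111 without DKO replicate 2), and its other probe gave -0.60. Ttn at -0.32 ± 0.07 and Des at 0.46 ± 0.12 did not pass, and the 2 relatives of Ankrd1, Ankrd2 and Ankrd23, differed by 0.06 ± 0.20 and 0.25 ± 0.12.

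Markers of other cell types that express CCN and YAP target genes were measured on the same arrays. Counts by unadjusted p are again given without the share over all genes, among which such a p was common. All 8 endothelial markers were higher in DKO hearts, with a median of 0.23, or 0.17 without control replicate 1. The limma count was 0 (3 had an unadjusted p under 0.05: Tie1 at 0.27, Tek at 0.20 and Fabp4 at 0.30). Their summed linear signal ran from 67856 to 86409 in controls and from 88373 to 95420 in DKO hearts, without overlap. Fabp4, the brightest of the 8, weighs most in this sum. It read 15.28 to 15.69 in controls and 15.70 to 15.80 in DKO hearts, and sums without it were not made. Of 9 fibroblast markers 8 were higher and 0 passed in limma (2 had an unadjusted p under 0.05: Dpt at 0.36 and Pdgfra at 0.28). Their median was 0.14, and their sums ran from 110988 to 117157 in controls and from 116367 to 137224 in DKO hearts. Among 6 measured markers of activated fibroblasts Thbs4 and Lox rose (0.69 ± 0.11 and 0.55 ± 0.09; limma, adjusted p = 0.0205 and 0.0280), whereas Acta2 gave -0.41 and Postn 0.05 ± 0.12. Of the 6, 4 were higher, with a median of 0.24, and 2 passed, where 2.41% of all genes passed as rises. Beside Acta2, Fap was lower, at -0.27 ± 0.14. Acta2 made up 91.4% to 95.3% of their summed signal, which was 39642 to 53931 in controls and 33508 to 40720 in DKO hearts. Without Acta2, a choice made after seeing the data, the sums were 2421 to 2641 in controls and 2732 to 2985 in DKO hearts, without overlap. This leaves out the marker with the most negative difference and keeps Thbs4 and Lox, so it is no separate support. Thbs4 passed in 3 and Lox in 1 of the 7 fits with an array left out (adjusted p up to 0.0756 without DKO replicate 1 and 0.0923 without DKO replicate 2). Of 8 mural markers 1 rose, where 2.41% of all genes passed as rises. This was Myh11 (0.63 ± 0.14, adjusted p = 0.0487 by limma). It passed in 0 of the 7 fits with an array left out (adjusted p up to 0.142 without DKO replicate 1). Its 2 other probes gave 0.38 and 0.25. Rgs5 gave 0.36, Tagln 0.36, Pdgfrb 0.22 and Kcnj8 0.21, whereas Acta2 gave -0.41, Abcc9 -0.16 and Cspg4 -0.004. Of the 8, 5 were higher, with a median of 0.21, and 5 had an unadjusted p under 0.05, the lower Acta2 among them. The mural sums overlapped with Acta2 (76024 to 87513 and 72851 to 81881), which was 42% to 59% of them. Without it, again a choice made after seeing the data, they did not overlap (35607 to 38968 in controls and 42112 to 43893 in DKO hearts). Here too the marker with the most negative difference was the one left out. Of 8 cardiomyocyte markers 6 were lower and 0 passed in limma, with a median of -0.06. Sums of cardiomyocyte markers overlapped, at 1735420 to 1827910 and 1694820 to 1839770 (Ryr2 at -0.38 and Actc1 at -0.24 were the nearest to passing), and so did those of 6 leukocyte markers (Lyz2 at 0.33) and of the erythrocyte genes Hba-a1 and Alas2. Of the atrial markers Nppa gave 0.82, Myl4 -0.43 and Myl7 -1.09, and Sln was not measured. Myl7 was dim, above background on only 4 of 7 arrays, and its groups overlapped (limma, adjusted p = 0.199). The epicardial genes Upk3b, Krt19 and Upk1b were above background on 0 arrays, and Msln and Wt1 gave -0.19 and 0.10. Msln, too, was above background on only 4 arrays. The part of these cells in the rises of Ccn2, Amotl2 and Ankrd1 was not tested.

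The genes whose pattern over the 7 arrays was closest to that of Ccn2 were sought among 13781 named genes. Likeness was the root mean square of the difference between 2 genes' log2 profiles, each centred on its control mean. The 5 nearest were Myh7, the beta myosin heavy chain (0.22), the growth factor Fgf6 (0.23), the kinase gene Cdkl1 (0.29), Bex1 (0.31) and the retinol carrier Rbp4 (0.31). Myh7 read 16.40, 16.05, 16.81 and 16.14 in controls and 18.66, 18.57 and 18.15 in DKO hearts; since these genes were picked for their likeness, no test was made. By the same measure 4 others of the 10 genes were farther away, with Ankrd1 at 0.74, Amotl2 at 0.84, Ccn5 at 1.03 and Ccn1 at 1.07. The measure weighs the size of a rise as well as its shape.

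**Figure D5:**
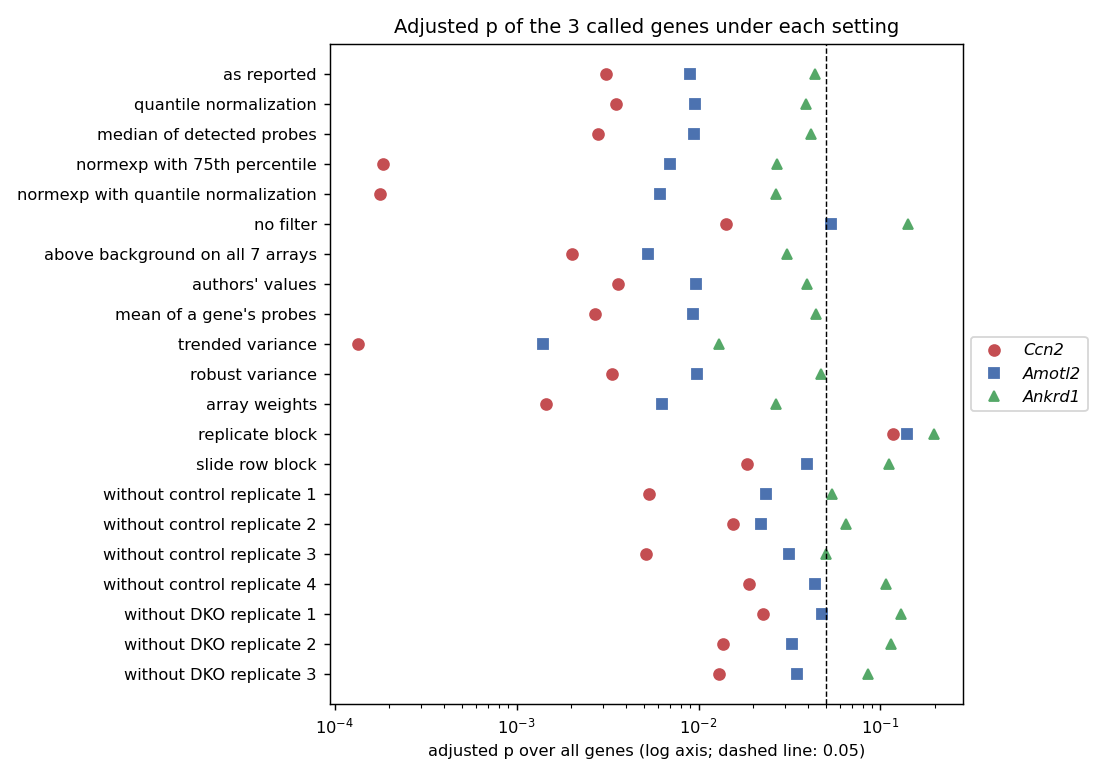
Adjusted p over all genes (log axis) of Ccn2, Amotl2 and Ankrd1 under each processing setting, with a dashed line at 0.05. Ccn2 stays left of the line in all settings but the replicate block, Amotl2 in all but that and the fit without a filter, and Ankrd1 crosses it in 10 of the 20 alternatives.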

How the data were processed

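The deposited files hold 7 arrays of design 074809, which the authors scanned and quantified (Feature Extraction 12.0.3.1, build mm9), per the file headers. The processed signal is a background-subtracted intensity on a linear scale, per the file headers; median spot and background intensities served for normexp. A further deposited table by the authors gives log2 values and served as an alternative.

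Outlier spots and control spots were left out. The 75th percentile of the log2 signals was taken per array from all spots that are no controls, and arrays were shifted to the mean of these percentiles (9.14). Of 56605 probes, 32994 matched a symbol by accession (RefSeq, GRCm38.p6). Probes well above background on at least 3 of 7 arrays were kept, and the brightest kept probe stood for a gene. All 7 arrays entered 1 fit of group (limma 3.58.1, R 4.3.3, moderated by eBayes, Benjamini-Hochberg threshold 0.05), which was tested on simulated data. The 10 genes and all lists were chosen with earlier results of these data known. Named beside the 10 were, in each list, the genes that passed and up to 3 with the smallest p, the 5 genes most like Ccn2, Akt1 and Akt2; others were picked for contrast after their values were seen. The result of 1 gene that the rule names is not reported here. Alternatives covered normalization, background correction, filter, probe rule, variance model, array weights, blocks and each array left out.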

Additional observations from a re-analysis of the deposited data

Results flagged for a closer look

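Of the 14 tested probes of the 10 genes and the medians of 15 gene lists, 1 control value stood far from the other controls of its kind, by Dixon's 95% criterion for 4 samples, which chance meets in about 1 of 20 such sets. The median deviation of the cardiomyocyte markers from their control mean was 0.040 log2 units in control replicate 2, against -0.007 to -0.002 in the other controls. None of the 14 probes met the criterion in the controls, and the 3 DKO arrays are too few for it.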

How the results depend on the processing

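Ccn2 kept its call in 19 of 20 alternatives (log2 difference 1.90 to 2.08), Amotl2 in 18 and Ankrd1 in 10, and Ccn1, Ccn5, Yap1, Tead1 and Tead4 kept their direction in all 20 without passing. With the replicate number as a block (replicate block) 1 gene in all was called, and the limma adjusted p of Ccn2 was 0.117. Calls fell to 0 of the 10 genes, of their probes, of the YAP targets, of the Hippo genes and of the CCN relatives and receptors. Control replicate 4 has no DKO array of its number, and the block terms leave this fit little to estimate spread from. Same-numbered arrays correlated at 0.129, 0.007 and 0.033 in their deviations from group means. Differently numbered pairs ran from -0.174 to 0.172. So few values cannot decide whether the numbers pair the mice. Without a filter, over more genes, 121 genes, 1 of the 10 (Ccn2), 1 of their probes and 0 of each list passed. Slide row as a block gave 288 genes, 1 YAP target, 0 Hippo genes and 0 relatives. Normexp with the 75th percentile or with quantile normalization gave 624 and 717 genes, 1 YAP target and 1 Hippo gene each, and the latter 1 relative, as did quantile normalization and the authors' values. Averaging the probes of each gene left 1 Hippo gene. Trended variances gave 2007 genes and array weights 1680. Without 1 array, 160 to 1127 genes passed, 2 of the 10, 2 to 3 of their probes, 0 to 1 YAP targets, 0 to 1 Hippo genes and 0 to 2 relatives. Directions turned for Wwtr1 under normexp (0.034, and 0.0036 with quantile normalization) and for Lats2 with the mean of its probes (-0.052), array weights (-0.0058) and without control replicate 1 (-0.0045, where leaving out each array gave -0.0045 to 0.12). Other causes were not tested.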
